A study of Mus musculus with 29 samples.

Results

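Cultures labelled BERKO at the MN stage were compared with midbrain precursor cultures of the same line, described across all genes. The comparison takes the arrays whose source label reads MN BERKO (3 untreated arrays) against those that read mDPC BERKO (2 untreated arrays), 5 of the 29 arrays of the series. The series follows mouse embryonic stem cells (mESC) through neural precursor cells (NPC) and midbrain neural precursors (mDPC) to cells described as mature midbrain neurons (MN), in a wild-type line (WT) and in a line whose gene for oestrogen receptor beta, Esr2, is labelled as knocked out (BERKO). The MN and mDPC groups used here were grown without feeder cells. The mDPC medium held N2 supplement, basic FGF, FGF8b, Shh and ascorbic acid, and the MN medium held N2 and ascorbic acid without the growth factors, so medium and stage changed together and cannot be told apart. Untreated mDPC cultures had received the vehicle DMSO for 4 days; the labels give no length of treatment for MN. Some cultures received LY3201, a selective agonist of that receptor, at 0.5 nM, in mDPC for 4 days. As comparisons serve 2 MN BERKO and 2 mDPC BERKO arrays with LY3201, together with 2 untreated MN WT and 2 untreated mDPC WT arrays. Levels in 2 untreated mESC BERKO and 2 untreated NPC BERKO arrays are given beside them. The labels give 4 days of treatment for NPC and no length for mESC. The labels call the replicates biological, and do not say how many clones stand behind the line.

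Neural precursors kept in FGF divide and hold off differentiation. When the growth factors are taken away they leave the cell cycle and become neurons, astrocytes, oligodendrocytes or, along the ventricles, ependymal cells, whose motile cilia move cerebrospinal fluid. Dopaminergic neurons of the midbrain are known by tyrosine hydroxylase (Th) and the dopamine transporter (Slc6a3), and arise from a floor plate that expresses Foxa2 and Lmx1a.

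Every array held 1 RNA sample, of 150 ng, and values are levels on a log2 scale, so that a difference of 1 is a doubling. A gene was called where limma's adjusted p was under 0.05 over the 22063 genes tested, and differences are given as MN minus mDPC with a standard error (SE). Replicates agreed closely across genes, which are not independent replicates, with Pearson r of 0.997 to 0.9975 among the MN BERKO arrays and 0.9978 between the mDPC BERKO arrays. Levels under the 95th percentile of the array's negative control probes, 6.632 to 6.745 in MN BERKO and 7.17 to 7.176 in mDPC BERKO, were not clearly above background. A difference towards such a level is a lower bound. Esr2 was 4.46, 4.23 and 4.35 in MN BERKO against 4.09 and 4.17 in mDPC BERKO, a difference of 0.22 ± 0.11 that did not pass (adjusted p = 0.125). These levels were above the 3.27 to 3.41 of the 4 untreated WT arrays of both stages. All of them lay below that percentile, so they cannot test the label, and BERKO names the label throughout.

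The step changed a large part of the measured genes. In MN BERKO 4432 genes were higher (20.1% of those tested) and 6797 lower (30.8%), but of changes of at least 2-fold 1897 were rises (8.60%) and 1065 falls (4.83%). At 16-fold or more there were 227 rises and 19 falls. The arrays of MN BERKO and mDPC BERKO did not overlap for 5318 genes that were higher (24.1%) and 9696 that were lower (43.9%). The median of all genes was -0.145, and -0.059 after quantile normalization, and 3337 of the genes called lower lay below the negative control percentile in both groups, as did 1879 of those called higher. The median level of all clusters moved the same way, at 3.519 to 3.554 in the MN BERKO arrays against 3.679 in both mDPC BERKO arrays; its part in the small falls was not tested. In 718 of the larger rises the gene was above that percentile in all MN BERKO arrays and not in all mDPC BERKO arrays, and the reverse held for 138 of the larger falls. Because RNA came from whole cultures, more or fewer cells of a type and more or less RNA per cell cannot be told apart here.

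The largest rise was that of Fam216b, which was 14.89, 14.27 and 14.72 in MN BERKO against 3.23 and 3.34 in mDPC BERKO (11.34 ± 0.18, adjusted p = 1.92e-19). Fmod, which encodes the collagen-binding proteoglycan fibromodulin, was 14.23, 14.0 and 14.10 against 3.32 and 3.39 (10.75 ± 0.12). Its relative Prelp was 17.03, 17.00 and 17.07 against 7.10 and 7.01 (9.98 ± 0.14). The 3 genes were thus near or under background in mDPC BERKO. Arrays without overlap, and a level above background in every MN BERKO array, were conditions for naming a rise. The membrane protein gene Tm4sf1 (10.53 ± 0.16), the elongin-like gene Elobl (10.31 ± 0.30), the corneodesmosin gene Cdsn (8.91 ± 0.30) and the matricellular gene Ccn5 (8.61 ± 0.33) followed. Fgl2, a fibrinogen-like protein gene, rose by 8.93 ± 0.38 and spread most among these, with 12.55, 13.08 and 10.93 in MN BERKO against 3.19 and 3.32 in mDPC BERKO. For all 12 of the largest rises the mDPC BERKO level was below the negative control percentile, so each size is a lower bound.

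**Figure D1:**
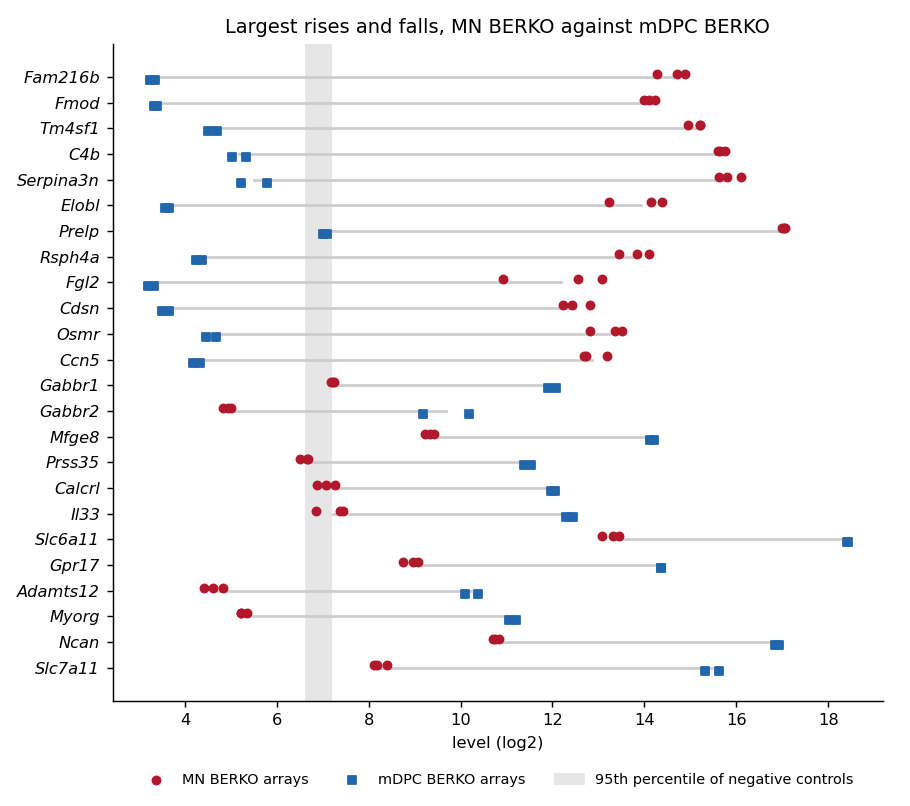
Levels (log2, x axis) of the 12 largest rises and 12 largest falls in each array, with circles for the 3 MN BERKO arrays, squares for the 2 mDPC BERKO arrays, and a line between the group means. The grey band spans the 95th percentile of the negative controls over the 5 arrays. Fam216b lies at 14.27 to 14.89 in MN BERKO and at 3.23 and 3.34 in mDPC BERKO. Only genes whose groups do not overlap could be chosen.

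Among the largest falls were genes of glia and of their precursors. Slc7a11, the exchanger that imports cystine and exports glutamate, was 8.18, 8.11 and 8.40 in MN BERKO against 15.31 and 15.62 in mDPC BERKO (-7.24 ± 0.21, adjusted p = 4.82e-16). Ncan, the brain proteoglycan neurocan, was 10.70, 10.75 and 10.83 against 16.84 and 16.93 (-6.13 ± 0.12). Both genes stayed above background in MN BERKO, and groups without overlap were a condition for naming them. Gpr17, a receptor of oligodendrocyte precursors, fell by 5.43 (SE 0.27), and the astrocytic GABA transporter Slc6a11 by 5.14 (SE 0.18), with 13.07, 13.32 and 13.44 in MN BERKO against 18.43 and 18.41 in mDPC BERKO. Also in this group were the nuclear cytokine Il33 (-5.14 ± 0.14), the metalloprotease Adamts12 (-5.61 ± 0.11), the peptide receptor Calcrl (-4.93 ± 0.13) and Mfge8, whose product binds phosphatidylserine on dying cells (-4.83 ± 0.12). Myorg (-5.87 ± 0.13) and Prss35 (-4.85 ± 0.20) complete the set with both GABA-B receptor genes, described further on.

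The MN label was set against markers of neurons. Stmn2, of growing axons, was 10.14, 10.72 and 10.67 in MN BERKO against 5.85 and 5.87 in mDPC BERKO (4.65 ± 0.58, adjusted p = 1.47e-06), and the growth cone gene Gap43 was 10.51, 11.37 and 11.11 against 7.54 and 7.67 (3.39 ± 0.24). Uchl1 (2.41 ± 0.11) and the neuronal tubulin gene Tubb3 (1.66 ± 0.36) rose as well, while the dendritic Map2 (-1.49 ± 0.09), Dcx of young neurons (-1.17 ± 0.26) and the filament gene Ina (-1.57 ± 0.57, adjusted p = 0.0288) fell. Ina lost its call without mDPC BERKO array 1 or 2 or MN BERKO array 2 or 3, with differences of -1.60 to -1.50. In total 6 of 21 tested neuronal genes rose and 6 fell, near the shares over all genes. Rbfox3, whose product NeuN marks mature neurons, was 3.91, 3.98 and 4.06 in MN BERKO against 4.71 and 4.66 in mDPC BERKO, below background in both. The same held for Snap25 of the synaptic release machinery, at 4.88, 4.86 and 4.87 against 5.49 and 5.56 (-0.65 ± 0.57, adjusted p = 0.351). The SE of Snap25 comes from the spread shared by all groups, among them MN WT arrays that lay far apart. It does not measure the spread of these BERKO arrays, which did not overlap between the stages. Of 22 tested genes of synaptic vesicle release 1 rose and 8 fell, with a median of -0.25; 4 fell without mDPC BERKO array 1 and 5 without MN BERKO array 2. Over all genes tested 30.8% fell and 20.1% rose. Neuronal signal at the MN stage thus came from only some members of the neuronal list.

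Dopaminergic markers were at background too. Th lay at most at 3.57 and the transcription factor Pitx3 at most at 3.42 over all 29 arrays, and neither passed the filter for testing. Slc6a3 was 3.45, 3.53 and 3.57 in MN BERKO against 3.72 and 3.69 in mDPC BERKO (adjusted p = 0.0773). Of the 17 tested genes of this list 3 rose and 4 fell, with 2 falls left without mDPC BERKO array 1 or 2 or MN BERKO array 3. These counts did not exceed the shares over all genes tested, 20.1% higher and 30.8% lower. The rises were Gfra1, a receptor for the growth factor GDNF (9.74, 10.06 and 9.62 against 6.58 and 6.61, 3.21 ± 0.22), the midbrain and hindbrain homeobox gene En2 (1.61 ± 0.15) and Ddc (0.56 ± 0.14). The falls, in Corin, Foxa2, En1 and Otx2, were between -0.63 and -0.22 and below background on both sides; En1 lost its call without mDPC BERKO array 2, MN BERKO array 1 or MN BERKO array 3, at -0.19, -0.20 and -0.26, and Foxa2 without mDPC BERKO array 1, at -0.24. In all MN BERKO arrays only Gfra1, En2 and Aldh1a1 of the 17 exceeded the negative control percentile, and Aldh1a1, of retinoic acid synthesis, did not pass (0.11 ± 0.19, adjusted p = 0.661).

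**Figure D2:**
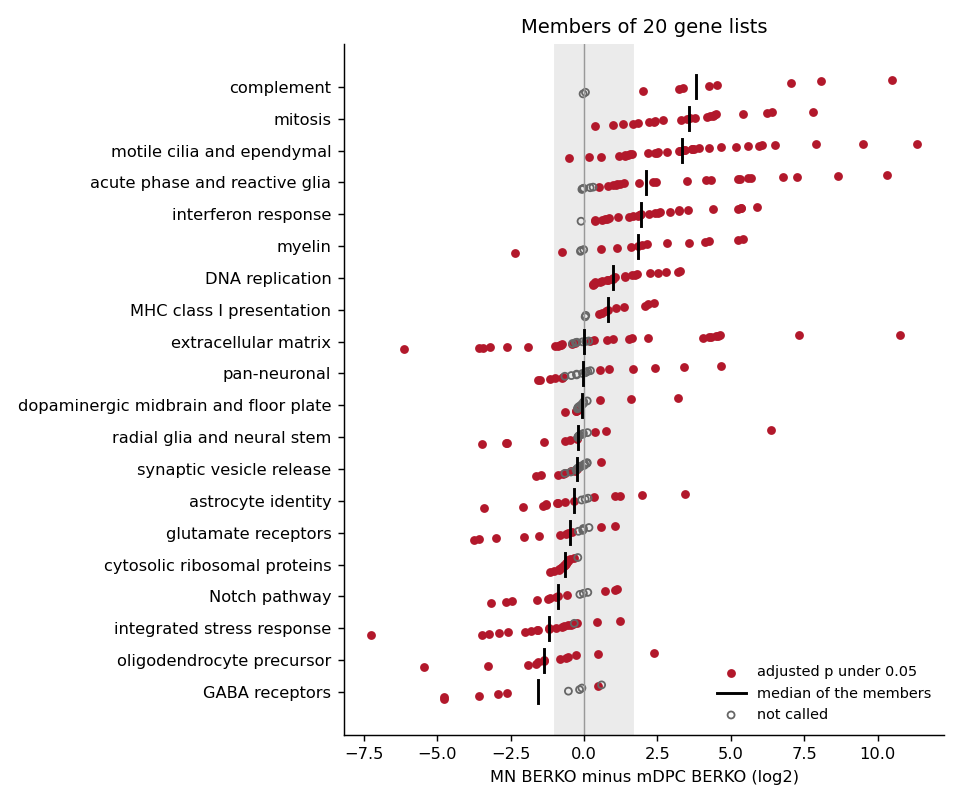
Difference MN BERKO minus mDPC BERKO (log2, x axis) of each tested member of 20 gene lists, ordered by the median (black bar); filled points passed an adjusted p of 0.05 and open points did not. The grey band spans the 5th to 95th percentile of all genes tested, -0.99 to 1.66, and of the 20 medians those of the complement (3.82), mitosis (3.56) and cilia (3.33) lists lie furthest to the right.

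Mitosis genes rose together. Mki67, a marker of cycling cells, was 12.71, 12.97 and 12.90 in MN BERKO against 5.12 and 5.05 in mDPC BERKO (7.78 ± 0.18, adjusted p = 3.53e-17). Top2a, the topoisomerase of dividing cells, was 11.55, 11.82 and 11.81 against 5.37 and 5.29 (6.40 ± 0.11), and the spindle motor Kif11 was 11.32, 11.51 and 11.40 against 5.24 and 5.10 (6.24 ± 0.10). Cyclin A2 (Ccna2, 5.40 ± 0.11) and the kinetochore genes Cenpf (4.49 ± 0.13) and Cenpe (4.44 ± 0.10) followed. All 22 tested members were called higher and 0 lower, with a median of 3.56, and 0 of them were above the negative control percentile in all mDPC BERKO arrays, against 18 in all MN BERKO arrays. The 23 tested genes of DNA replication were also all called higher, with a median of 1.00, among them the ribonucleotide reductase subunit Rrm2 (3.27 ± 0.14) and the replicative helicase subunits Mcm6 (3.19 ± 0.13) and Mcm5 (2.80 ± 0.13). Of 16 cell cycle inhibitors and p53 targets 5 were higher and 3 lower, together near the share of all genes called, with Gadd45b highest (3.00 ± 0.18).

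The mitosis genes were nonetheless below their level in NPC BERKO. In the 2 untreated NPC BERKO arrays Mki67 averaged 16.02 and Top2a 14.33, and all 22 mitosis genes averaged at least 1 lower in MN BERKO than in NPC BERKO, with a median difference of -2.94. The cilia and interferon genes differed from this: 29 of 32 and 21 of 27 averaged at least 1 higher in MN BERKO than in NPC BERKO. Over all genes with a rise of at least 2-fold, 1474 were at least 1 above NPC BERKO in MN BERKO, 269 within 1 of it and 154 at least 1 below it. Of the falls of at least 2-fold, 631 ended at least 1 below NPC BERKO, 416 within 1 and 18 at least 1 above. These values share the MN BERKO arrays with the step and are given as levels without a test.

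**Figure D3:**
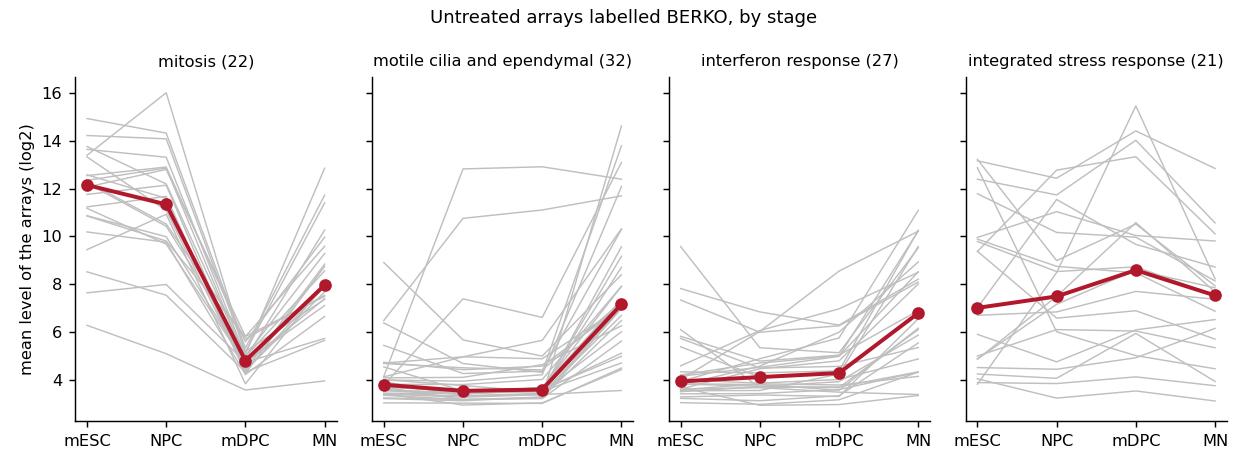
Mean level (log2, y axis) over the untreated arrays labelled BERKO at the mESC, NPC, mDPC and MN stages (x axis) for each tested member of 4 gene lists (grey lines) and their median (red). Mitosis genes dip at mDPC, as Mki67 does with 16.02 in NPC, 5.08 in mDPC and 12.86 in MN, and the medians of the cilia and interferon genes are highest at MN.

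Promoters of the mitosis genes were searched because their members moved together. The cell cycle homology region, TTTGAA on either strand, is an element known from promoters of late cell cycle genes. RefSeq windows of GRCm38.p6, 250 bases before to 50 after the start, held it for 14 of the 18 mitosis genes with a window, and for 15.62% of all 13032 tested genes with one. The 3 largest rises that hold it before the start are shown, 60 bases each, with the motif in capitals, for Mki67 at chr7:135716445-135716504 on the minus strand, Top2a at chr11:99024190-99024249 on the minus strand and Kif11 at chr19:37376322-37376381 on the plus strand. E2F sites, TTTGGCGC or TTTCGCGC on either strand, were found for 6 of 19 DNA replication genes and 1.53% of all, in Mcm6 and Mcm5 among others. A match is a run of letters and shows no binding.
Mki67: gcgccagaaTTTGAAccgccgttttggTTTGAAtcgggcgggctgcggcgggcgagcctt
Top2a: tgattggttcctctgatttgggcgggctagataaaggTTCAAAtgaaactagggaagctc
Kif11: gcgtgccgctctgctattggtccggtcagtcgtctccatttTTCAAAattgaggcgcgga

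Genes of motile cilia rose, with Fam216b, the largest rise of all, on the list. Rsph4a, a radial spoke protein of the ciliary axoneme, was 14.11, 13.44 and 13.85 in MN BERKO against 4.23 and 4.38 in mDPC BERKO (9.49 ± 0.18, adjusted p = 2.44e-18). Enkur was 12.44, 11.54 and 12.30 against 4.28 and 4.14 (7.88 ± 0.20), and the spoke gene Rsph1 was 10.73, 9.68 and 10.49 against 4.35 and 4.37 (5.94 ± 0.23). MN BERKO array 2 was the lowest of the 3 for each of these, though far above mDPC BERKO. Cfap52, of the ciliary axoneme (6.06 ± 0.15), and the secreted peptide gene Ecrg4 (6.49 ± 0.22) rose as well. Of 32 tested members 31 were called higher and 1 lower, with a median of 3.33; 19 were above the negative control percentile in all MN BERKO arrays and 2 in all mDPC BERKO arrays. The member that fell was the transcription factor Rfx4 (-0.51 ± 0.10), which is known for work in neural progenitors and was named after its value was seen. Mean levels of the list were 8.34, 7.76 and 8.10 in MN BERKO against 4.43 and 4.42 in mDPC BERKO. Choroid plexus genes, of the secretory epithelium beside the ependyma, stayed low, with list means of 4.54 to 4.61 against 3.72 and 3.69, and of 10 tested only the transporter gene Slco1a5 (6.24 ± 0.13) exceeded the negative control percentile in all MN BERKO arrays.

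RFX factors switch on many cilia genes through the X-box, a palindrome. The full motif, GTTNCC, any 2 bases and GGNAAC, was found in 1 of 29 promoter windows of the cilia list and in 0.65% of all, and a shorter site, GTTGCC on either strand, in 12 of 29 and 15.19% of all; the first contains letters that can match the second. The window with the full motif was that of Pifo, a gene of cilium disassembly, which rose by 1.49 (SE 0.08) and is shown for that reason, at chr3:106001498-106001557 on the minus strand.
Pifo: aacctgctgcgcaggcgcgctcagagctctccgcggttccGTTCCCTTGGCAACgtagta

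Interferon-induced genes rose throughout the list. Ifit3, of the family that binds viral RNA, was 10.58, 9.63 and 10.58 in MN BERKO against 4.38 and 4.35 in mDPC BERKO (5.90 ± 0.22, adjusted p = 3.49e-14). Ifit1 was 10.03, 8.55 and 10.15 against 4.31 and 4.17 (5.34 ± 0.33), and the guanylate-binding protein gene Gbp2 was 11.16, 10.86 and 11.24 against 5.82 and 5.68 (5.34 ± 0.13). Array 2 was again the lowest of MN BERKO, and the groups did not overlap. Bst2, a tether of budding virus, rose by 4.39 ± 0.22 and the immunity GTPase gene Igtp by 3.54 ± 0.18. Ifit3b rose by 5.24 ± 0.33, but as a near copy of Ifit3 its signal may be shared with it. Of 27 tested members 26 were called higher and 0 lower, with a median of 1.95, and Oas1a (-0.10) did not pass. Of the members, 13 were above the negative control percentile in all MN BERKO arrays and 1 in all mDPC BERKO arrays. Mean levels of the list were 7.21, 6.68 and 7.13 in MN BERKO against 4.66 and 4.57 in mDPC BERKO.

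The interferon-stimulated response element was searched in the same windows by its core on either strand, GAAA, any 2 bases and GAAA again. It was found for 15 of 22 interferon genes with a window, against 3.78% of all genes, and for 1 of 10 genes of MHC class I presentation, B2m. Of the printed windows Ifit3 lies at chr19:34583382-34583441, Ifit1 at chr19:34640779-34640838 and Gbp2 at chr3:142620579-142620638, all on the plus strand, and Bst2 at chr8:71537562-71537621 on the minus strand. They belong to the rises described above, with the core in capitals, and Ifit1 and Bst2 hold it more than once.
Ifit3: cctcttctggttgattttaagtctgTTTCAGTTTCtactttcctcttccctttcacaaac
Ifit1: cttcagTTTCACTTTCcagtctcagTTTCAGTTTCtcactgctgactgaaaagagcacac
Gbp2: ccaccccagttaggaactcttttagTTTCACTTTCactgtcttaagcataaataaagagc
Bst2: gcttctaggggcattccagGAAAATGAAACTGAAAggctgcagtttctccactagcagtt

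Genes of antigen presentation, complement and the acute phase rose beside them. The MHC class I heavy chain gene H2-K1 was 7.35, 7.25 and 7.46 in MN BERKO against 5.06 and 4.85 in mDPC BERKO (2.40 ± 0.08, adjusted p = 5.29e-15), H2-D1 rose by 2.17 ± 0.09, and 9 of 11 members of that list rose and 0 fell. C4b, of the classical complement pathway, was 15.61, 15.65 and 15.76 against 5.33 and 5.03 (10.49 ± 0.10), and Serping1, the inhibitor of complement C1, was 13.16, 12.90 and 13.64 against 5.19 and 5.10 (8.08 ± 0.17). C4a (7.06 ± 0.14) is a near copy of C4b, and its signal may be shared. The membrane regulators Cd55 (4.54 ± 0.10) and Cd59a (4.27 ± 0.16) and the chaperone clusterin (Clu, 3.38 ± 0.16) also rose, which made 8 of 10 tested complement genes higher and 0 lower, with a median of 3.82; Masp1 and C7 did not pass. Another 7 complement genes with a cluster, C1qa, C1qb, C1qc, C2, C5ar1, Cfb and Cfi, were at most 3.63 on every array and were not tested, so the median is over the brighter members.

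Serpina3n, an acute-phase protease inhibitor of reactive astrocytes, was 15.62, 16.11 and 15.80 in MN BERKO against 5.79 and 5.23 in mDPC BERKO (10.33 ± 0.18, adjusted p = 7.9e-19). The oncostatin M receptor gene Osmr was 12.82, 13.52 and 13.35 against 4.68 and 4.46 (8.66 ± 0.24), and the interleukin 1 receptor gene Il1r1 was 11.37, 12.47 and 11.72 against 5.07 and 5.10 (6.77 ± 0.27). Gfap, the astrocyte filament gene, was bright in both groups, with 18.95, 18.97 and 18.98 against 13.43 and 13.17 (5.67 ± 0.20). The lipid receptor gene S1pr3 (7.25 ± 0.35) and Steap4 (5.59 ± 0.21) rose too, and of 26 tested members of the acute phase and reactive glia list 21 were called higher and 0 lower, with a median of 2.10. STAT sites, TTCNNNGAA, were found in 5 of 21 windows of this list and 8.65% of all.

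Markers of immune cells were at background beside these groups. Of 16 listed genes of microglia and macrophages 15 had a cluster and 5 passed the filter, and 0 of these were above the negative control percentile in either group. The means of the 5 were 3.91, 3.96 and 4.04 in MN BERKO against 3.87 and 3.85 in mDPC BERKO. P2ry12 was called higher within background (0.77 ± 0.13, adjusted p = 4.53e-05), and Csf1r, Ptprc, Aif1, Tyrobp, C1qa, C1qb and C1qc were at most 3.63 in all 29 arrays. Endothelial markers were also at background, with means of 3.51, 3.49 and 3.61 against 3.55 and 3.47. Of 16 genes of mesenchyme, pericytes and smooth muscle 6 rose and 3 fell (1 without either mDPC BERKO array). Over all genes tested 20.1% rose and 30.8% fell. Acta2, smooth muscle actin, was 9.68, 8.29 and 9.38 in MN BERKO against 4.73 and 4.87 in mDPC BERKO (4.32 ± 0.27). The collagen gene Col1a1 did not pass (-0.08). Of 17 pluripotency genes 3 rose and 2 fell, neither above the shares over all genes. Tdgf1, a co-receptor for Nodal, was 6.73, 7.25 and 6.78 in MN BERKO against 4.72 and 4.73 in mDPC BERKO (2.2 ± 0.17, adjusted p = 1.36e-09). Tdgf1 lay above the percentile in MN BERKO arrays 2 and 3, and none of the 17 exceeded that percentile in all arrays of either group. Leaving out single arrays left 0 or 1 of the 2 falls, except without mDPC BERKO array 1.

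Astrocyte genes split. Gpr37l1, a receptor of astrocytes, was 14.34, 14.66 and 14.60 in MN BERKO against 11.29 and 10.89 in mDPC BERKO (3.44 ± 0.12), and S100b (1.99 ± 0.24) and Sox9 (1.22 ± 0.11) rose. The glutamate transporter gene Slc1a2 was 11.28, 11.47 and 11.42 against 14.78 and 14.80 (-3.40 ± 0.12, adjusted p = 8.83e-15), the bicarbonate transporter gene Slc4a4 fell by 2.08 (SE 0.12) and Aldh1l1 by 1.28 (SE 0.09), and the water channel gene Aqp4 did not pass (0.04). Together 5 of 17 rose and 9 fell, beside 20.1% and 30.8% of all genes tested. Of the 17, 13 were above the negative control percentile in all MN BERKO arrays and 14 in all mDPC BERKO arrays. Of 18 radial glia and stem cell genes 3 rose, near the share over all genes, and 8 fell. Nes, the filament nestin, was the exception in size, at 14.30, 14.16 and 14.38 in MN BERKO against 7.86 and 7.96 in mDPC BERKO (6.37 ± 0.20), whereas the growth factor receptor gene Egfr (-3.46 ± 0.12) and the Notch target Hes5 (-2.66 ± 0.11) fell. Hes5 averaged 4.07 in MN BERKO against 6.72 in mDPC BERKO, under background in both groups.

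In the oligodendrocyte lineage, precursor genes fell and myelin genes rose. Beside Gpr17, the transcription factor genes Sox8 (-3.26 ± 0.18), Olig1 (-1.65 ± 0.37) and Nkx2-2 (-1.58 ± 0.10) fell, and C1ql1 rose (2.38 ± 0.20). Nkx2-2 averaged 4.31 in MN BERKO against 5.9 in mDPC BERKO, under background in both groups. In total 11 of 13 tested precursor genes were lower and 2 higher, with a median of -1.35. Mobp was 8.34, 9.10 and 8.44 in MN BERKO against 3.14 and 3.29 in mDPC BERKO (5.41 ± 0.27, adjusted p = 2.79e-12), and the adhesion gene Mag was 6.81, 7.81 and 7.31 against 3.67 and 3.77 (3.59 ± 0.26). Mbp, myelin basic protein, was 6.61, 7.51 and 6.66 against 4.95 and 4.64 (2.13 ± 0.20). Array 2, the lowest for cilia and interferon genes, was the highest of MN BERKO here. Of 17 myelin genes 12 rose and 2 fell, with a median of 1.83 and list means of 7.85, 8.48 and 8.22 in MN BERKO against 6.40 and 6.27 in mDPC BERKO; the glial connexin gene Gjc3 fell by 2.36 (SE 0.19).

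Among transmitter receptor and potassium channel genes more fell than rose, as was so over all genes tested (30.8% lower and 20.1% higher). The GABA-B receptor subunit gene Gabbr1 was 7.25, 7.22 and 7.18 in MN BERKO against 11.90 and 12.07 in mDPC BERKO (-4.77 ± 0.23, adjusted p = 1.24e-12), and Gabbr2 was 4.93, 5.0 and 4.82 against 9.19 and 10.18 (-4.77 ± 0.29). The GABA-A subunit genes Gabra2 (-3.59 ± 0.13), Gabrg1 (-2.92 ± 0.12) and Gabra4 (-2.61 ± 0.20) fell with them, 5 of 10 tested GABA receptor genes lower and 1 higher (0 without mDPC BERKO array 1). Of 16 glutamate receptor genes 9 were lower and 2 higher, led by the metabotropic Grm3 (-3.74 ± 0.17) and the AMPA subunit Gria4 (-3.58 ± 0.12). Among 20 potassium channel genes 10 fell and 7 rose, with Kcnd2 at -3.75 ± 0.19 and the calcium-activated Kcnn3 at 3.16 ± 0.18.

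Genes of 4 signalling pathways were examined. In the Notch pathway 9 of 15 genes fell and 3 rose: the ligand genes Jag1 (5.27, 5.32 and 5.31 in MN BERKO against 8.40 and 8.57 in mDPC BERKO, -3.18 ± 0.11) and Dll1 (-2.45 ± 0.17) fell, as did the target Hes5. FGF feedback genes were called about as often as all genes, with Spry2 at -2.03 ± 0.15, the phosphatase gene Dusp6 at 1.85 ± 0.17, 4 of 12 lower and 2 higher (1 without MN BERKO array 1) beside 30.8% and 20.1% of all genes. Of 11 hedgehog genes 4 fell and 4 rose, among them the receptor and target Ptch1 (-1.30 ± 0.09) and Gas1 (2.32 ± 0.21). The ligand gene Bmp6 was 12.74, 11.85 and 12.34 against 5.55 and 5.86 (6.60 ± 0.22), and the BMP target Id4 rose by 2.54 ± 0.26 while Id2 (-1.30 ± 0.19) and Bmp4 (-1.36 ± 0.17) fell. Of the genes named here, Hes5, Dusp6, Gas1 and Bmp4 did not exceed the negative control percentile in all arrays of either group.

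Matrix genes went both ways. Beside Fmod, the collagen VI genes Col6a1 (12.63, 12.87 and 13.07 in MN BERKO against 5.62 and 5.45 in mDPC BERKO, 7.32 ± 0.17) and Col6a2 (4.55 ± 0.15), the proteoglycan Ogn (4.62 ± 0.20) and fibronectin (Fn1, 4.49 ± 0.21) rose. Beside Ncan, the proteoglycan genes Bcan (-3.57 ± 0.15) and Vcan (-3.43 ± 0.09) fell, both named after their values were seen. In the list as a whole 15 of 34 rose and 13 fell, beside 20.1% and 30.8% of all genes tested, with a median of 0.00.

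Genes of the integrated stress response, which restores amino acid supply, fell. Slc7a5, the large neutral amino acid transporter, was 10.52, 10.69 and 10.49 in MN BERKO against 14.23 and 13.84 in mDPC BERKO (-3.46 ± 0.14, adjusted p = 6.4e-14), and Phgdh, the first enzyme of serine synthesis, was 10.27, 9.88 and 10.19 against 13.39 and 13.30 (-3.23 ± 0.13). Asparagine synthetase (Asns, -2.58 ± 0.12), Aldh1l2 of mitochondrial folate metabolism (-2.90 ± 0.12) and the glutathione-degrading Chac1 (-2.01 ± 0.16) fell with Slc7a11. Chac1 averaged 3.93 in MN BERKO against 5.94 in mDPC BERKO, under background in both groups. In total 18 of 21 tested members were lower and 2 higher (1 without mDPC BERKO array 2, MN BERKO array 1 or MN BERKO array 2), Atf3 (1.22 ± 0.12) and Nupr1 (0.43 ± 0.16), named after their values were seen. The element bound by C/EBP and ATF factors, TGATGNAA on either strand, was found for 7 of 18 genes with a window and 3.37% of all, with genes of both directions among them. Falls are shown with it in capitals, Slc7a11 at chr3:50443627-50443686 and Asns at chr6:7693210-7693269 on the minus strand, and Chac1 at chr2:119351023-119351082 on the plus strand.
Slc7a11: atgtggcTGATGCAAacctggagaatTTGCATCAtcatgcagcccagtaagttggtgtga
Asns: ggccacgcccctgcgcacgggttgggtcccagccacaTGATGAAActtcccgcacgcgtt
Chac1: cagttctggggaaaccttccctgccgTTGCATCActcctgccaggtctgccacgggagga

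Metabolic genes moved in several directions, and their counts stand beside 20.1% higher and 30.8% lower over all genes tested. The cytosolic ribosomal proteins were lower for 16 of 17 and higher for 0, by small amounts (median -0.64, lowest Rpl27 at -1.17 ± 0.14). Metallothionein and antioxidant genes rose in 11 of 17 cases and fell in 4, with the quinone reductase Nqo1 at 9.11, 9.20 and 9.04 in MN BERKO against 4.58 and 5.16 in mDPC BERKO (4.25 ± 0.14). The lipid transfer protein gene Pltp was 16.41, 16.19 and 16.22 against 9.77 and 9.61 (6.58 ± 0.15), and 10 of 16 genes of lipid carriers and efflux rose. Of 23 genes of glycolysis and hypoxia 7 rose and 9 fell (median -0.21), with the glucose transporter Slc2a1 at 4.96 ± 0.18 and Ndrg1 at 6.46 ± 0.17, but the peptide gene Adm at 4.36, 4.31 and 4.05 against 7.98 and 6.58 (-3.04 ± 0.29) and the angiogenic factor Vegfa at -2.46 ± 0.25. The mDPC BERKO arrays lay far apart for Adm, though both were above all MN BERKO arrays. Of 16 cholesterol synthesis genes 8 rose and 4 fell, and of 18 lysosomal genes 8 rose and 5 fell. The falls in these lists were near the share over all genes. Of 17 immediate early genes 10 rose and 3 fell, with Fos (2.48 ± 0.33) and Dusp1 (3.23 ± 0.15) among the rises.

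By class of gene, protein-coding genes were 14536 of the 22063 tested. They held 1615 of the 1897 rises and 733 of the 1065 falls of at least 2-fold, so for falls their part was near their share of the genes tested. Of 751 tested small nucleolar RNAs 109 were at least 2-fold higher, but these had only 38 distinct profiles. Many entries carry identical values in every array. Another 61 were at least 2-fold lower, with 60 distinct profiles. Of all 751 the test called 116 higher (15.4%) and 291 lower (38.7%), beside 20.1% and 30.8% of all genes tested. The largest set with identical values, of 33 entries, averaged 12.14 in MN BERKO against 9.76 in mDPC BERKO (2.39 ± 0.69, adjusted p = 0.00725). In WT the step of this set was 6.67. Its entries are therefore 1 measurement and not 33. Over all genes tested, 393 entries shared all their values with another entry.

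The same step was taken between the BERKO arrays with LY3201, whose means share no array with the untreated comparison. Both steps use 1 shared estimate of the spread per gene, so their calls are not independent. With LY3201, 4021 genes were higher (18.2%) and 6175 lower (28.0%) in MN BERKO than in mDPC BERKO. Of the 2962 genes that changed at least 2-fold without LY3201, 2919 (98.5%) were called in the same direction with it and 0 in the opposite one; of the 2978 that changed at least 2-fold with it (7.95% of all genes higher and 5.54% lower), 2944 (98.9%) were called the same way without it. Differences correlated across genes with r = 0.966, as a description. The mitosis list had a median of 3.62 with LY3201 against 3.56 without, the cilia list 2.87 against 3.33 and the interferon list 1.59 against 1.95.

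**Figure D4:**
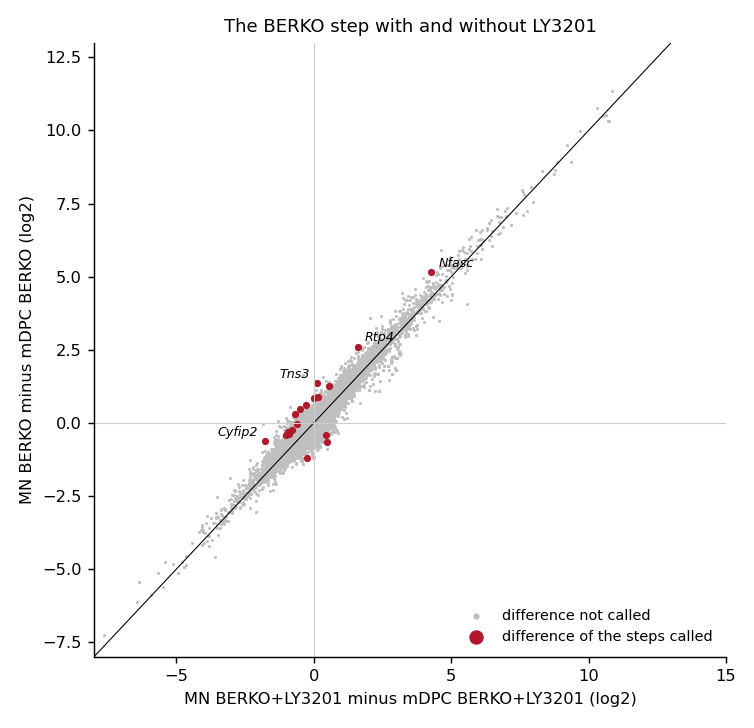
Difference MN BERKO minus mDPC BERKO (log2) for every gene tested, without LY3201 (y axis) against with LY3201 (x axis), with the line of equality. Red points are the 18 genes whose step differed between the treatments at an adjusted p of 0.05; the rest lie along the line.

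Tests of the difference of these steps called 18 genes (0.0816%), 3 with a more positive (0.0136%) and 15 with a more negative step (0.0680%) with LY3201, a count that other settings moved to between 0 and 29. Cyfip2, a regulator of actin assembly, changed by -1.79 with LY3201 and by -0.62 without (difference -1.17 ± 0.14, adjusted p = 0.00286). Nfasc, the axonal adhesion gene neurofascin, rose by 4.28 with LY3201 and by 5.16 without (difference -0.88 ± 0.16, adjusted p = 0.0427). For both genes mDPC arrays differed more between treatments than MN arrays: Nfasc averaged 13.34 in MN and 9.06 in mDPC with LY3201, and 13.37 in MN and 8.21 in mDPC without it. Both were named after their values were seen.

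The step also differed between the lines. In a test of the difference, 2749 genes were called (12.5%), 1613 with a more positive step in BERKO than in WT (7.31%) and 1136 with a more negative one (5.15%); fitted to the compared groups alone these were 1000 and 617. Susd2, a membrane protein gene, rose in BERKO, at 10.24, 10.25 and 10.05 in MN BERKO against 4.36 and 4.35 in mDPC BERKO, and little in WT, at 5.22 and 5.21 in MN WT against 4.67 and 4.64 in mDPC WT (difference of the steps 5.27 ± 0.17, adjusted p = 1e-12). The cartilage gene Cnmd was 10.09, 10.04 and 10.19 against 4.01 and 3.99 in BERKO, and 5.75 and 5.98 against 3.75 and 3.88 in WT (difference 4.05 ± 0.21). Padi2, which converts arginine to citrulline, differed by 5.17 ± 0.29, Spata18 of mitochondrial quality control by 4.18 ± 0.21, Papss2 of sulphate activation by 3.94 ± 0.43, and the cadherin-related Cdhr4 by 3.66 ± 0.15.

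For the mitosis genes the lines differed at both stages, in opposite directions. Mean levels of the list were 8.28, 8.40 and 8.38 in MN BERKO against 7.58 and 7.32 in MN WT, and 4.87 and 4.78 in mDPC BERKO against 5.72 and 5.74 in mDPC WT. Mki67, which differed most at the precursor stage, was 12.71, 12.97 and 12.90 in MN BERKO and 12.24 and 11.69 in MN WT, but 5.12 and 5.05 in mDPC BERKO and 7.96 and 7.83 in mDPC WT (difference of the steps 3.71 ± 0.27, adjusted p = 2.02e-08). Of the 22 mitosis genes 21 had a more positive step in BERKO and 0 a more negative one, with a median difference of 1.92. For the interferon genes mean levels were 7.21, 6.68 and 7.13 in MN BERKO against 5.57 and 5.52 in MN WT, and 4.66 and 4.57 in mDPC BERKO against 4.36 and 4.39 in mDPC WT. Ifit3 was 6.78 and 6.62 in MN WT and 4.33 and 4.61 in mDPC WT (difference 3.66 ± 0.33), and 22 of 27 members had the more positive step in BERKO and 0 the more negative. Cilia genes had a more positive step in BERKO for 21 of 32 and a more negative one for 2, Ecrg4 among these (-3.53 ± 0.32).

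Among mesenchymal genes more steps were more negative in BERKO, whereas of 34 matrix genes 13 were more positive and 8 more negative. Dcn, the proteoglycan decorin, was 4.05, 4.64 and 4.37 in MN BERKO against 4.72 and 4.77 in mDPC BERKO, and 9.83 and 10.17 in MN WT against 5.38 and 5.41 in mDPC WT (difference of the steps -5.0 ± 0.30, adjusted p = 1.97e-09). Postn (-3.43 ± 0.19), Thbs1 (-3.50 ± 0.31) and the lipocalin gene Apod (-3.42 ± 0.34) followed, and 7 of 16 mesenchymal genes had the more negative step and 1 the more positive. Myelin genes had it for 11 of 17 and 0 the other way, as Mobp, which was 11.50 and 10.48 in MN WT against 3.31 and 3.32 in mDPC WT (-2.26 ± 0.41). Stress response genes had it for 13 of 21 and 0 the other way. Mean levels of that list were close at the MN stage, at 7.28, 7.25 and 7.28 in MN BERKO and 7.29 and 7.33 in MN WT. They differed at the precursor stage, at 8.88 and 8.65 in mDPC BERKO and 7.77 and 7.75 in mDPC WT. Aldh1l2 fell in BERKO but was 8.04 and 7.97 in MN WT against 7.25 and 7.07 in mDPC WT (-3.75 ± 0.18). Elobl (-4.14 ± 0.44) and Tmem255a (-3.64 ± 0.15) rose in both lines, less in BERKO. Snap25 was 6.36 and 9.62 in the MN WT arrays, far apart, and the difference of its steps was -3.04 ± 0.84 (adjusted p = 0.0205).

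**Figure D5:**
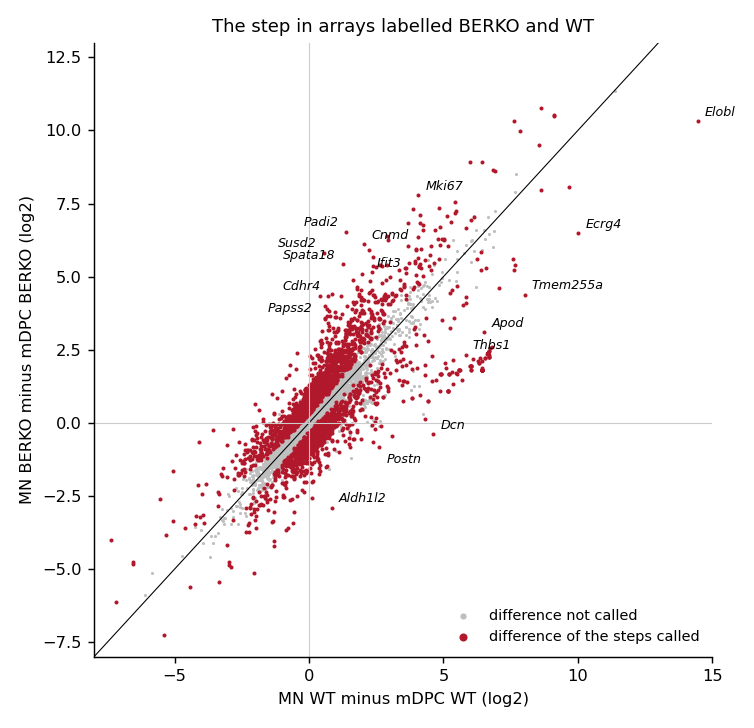
Difference MN minus mDPC (log2) for every gene tested in untreated arrays labelled BERKO (y axis) against WT (x axis), with the line of equality. Red points passed the test of the difference of the steps, and the 16 largest by the naming rule are labelled, from Susd2 (5.27) above the line to Dcn (-5.0) under it.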

How the data were processed

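RNA of 29 cultures was hybridised to Affymetrix Clariom D mouse arrays. The deposited values are log2 levels per transcript cluster, made with signal space transformation and RMA in Expression Console 1.4, per the labels. The submitters' processing notes also name RMA and the Transcriptome Analysis Console, with no role given. The genome build of the clusters is not given in the sources used here. Arrays were grouped by source name.

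Of 65956 transcript clusters 30604 had 1 gene symbol, 2146 several and 33206 none. Only the first were used, with the brightest cluster for the 355 genes that had more than 1, which left 30142 genes. Names, gene classes and promoter windows came from RefSeq GRCm38.p6, and 827 symbols were updated. Genes above the array's median of all clusters on at least 2 arrays were tested, 22063 in all. A group-means model over the 14 groups was fitted with limma 3.58.1 in R 4.3.3, and p-values were adjusted by Benjamini-Hochberg over all genes tested. Differences of steps were contrasts in the same model. Since all groups share 1 estimate of the spread, 15 residual degrees of freedom stand behind each test; 3 arrays against 2 limit the precision of each mean. These degrees of freedom count as separate samples 2 pairs of arrays, in mESC BERKO and NPC WT+LY3201, whose titles share a number and which may be repeats of 1 sample. On simulated data with known changes the step recovered 52% of changes of 0.5 and 88% of changes of 1, with 6 false calls, and the difference between lines 13% and 65%. Far fewer genes were changed in these data than the real tests called, so the rates may not hold for the real comparisons.

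Named genes were the 12 largest rises and falls, with non-overlapping arrays, and the 8 largest differences of steps in each direction, without that condition. These were above background in all arrays of a group, and predicted genes and small RNAs were left out. Up to 6 called members of each of 38 gene lists and defining markers were named too. Bcan, Vcan, Gjc3, Pifo, B2m, Otx2, Rfx4, Atf3, Nupr1, Cyfip2 and Nfasc were named after their values were seen. The comparison, the lists and the motifs were chosen with earlier results of these data known. Alternatives were no filter or a stricter one, quantile normalization, only the compared groups, untreated arrays alone, a trended prior, all clusters as features, same-numbered arrays averaged and each array left out. Values below the negative control percentile may compress differences.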

Additional observations from a re-analysis of the deposited data

Results flagged for a closer look

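The step from mDPC to MN differed between the lines by the test of the difference itself, with 1613 genes more positive and 1136 more negative in BERKO than in WT. The naming rule leaves out small RNAs and predicted genes. Under it the largest differences above 0 were those of Susd2 (5.27), Padi2 (5.17), Spata18 (4.18), Cnmd (4.05), Papss2 (3.94), Mki67 (3.71), Ifit3 (3.66) and Cdhr4 (3.66). Those furthest below 0 under the same rule were Dcn (-5.00), Elobl (-4.14), Aldh1l2 (-3.75), Tmem255a (-3.64), Ecrg4 (-3.53), Thbs1 (-3.50), Postn (-3.43) and Apod (-3.42). For Dcn and Postn the change was in WT: both lay below background in all 5 arrays of MN BERKO and mDPC BERKO. Mki67 and Aldh1l2 differed between the lines mainly at the mDPC stage.

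Between cultures with LY3201 and without, the same test called 18 genes in BERKO.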

How the results depend on the processing

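No called difference of a gene named by rule changed sign under an alternative. Some other genes in the text, such as Dcx, Mbp and Snap25, were not part of this check. The median of the dopaminergic list, -0.08, was 0.33 with the filter at the 75th percentile. The counts of genes higher and lower kept within 1.5 times of 4432 and 6797 in every alternative, and so did the counts with LY3201. Falls of at least 2-fold were 1705 with transcript clusters as features, of 43502 tested. Fitted to the compared groups alone, the difference between the lines gave 1000 genes more positive and 617 more negative in BERKO. The 18 genes whose step differed with LY3201 were 5 with no filter, 5 after quantile normalization, 0 in the compared groups alone and 1 with clusters. Leaving out each array in turn gave 0 to 29, the lowest without MN BERKO+LY3201 array 1 and the highest without MN BERKO array 2. In an alternative chosen after seeing the data, entries with identical values were counted once, which left 4358 higher and 6766 lower of 21774, with 1824 and 1061 of at least 2-fold. Of the named steps 2966 comparisons kept their side of the threshold, 55 lost the call and 3 gained it. The differences between lines kept it in all 272, but only the 16 largest by the naming rule were checked, not those of Snap25 or Mobp. For the gene lists, 16 medians, 18 counts of members higher and 38 of members lower moved, most often with the filter at the 75th percentile, which leaves fewer dim members: the interferon median was then 2.52, that of the acute phase list 3.81 and that of the complement list 4.40. No paired analysis was possible because the labels give the groups compared no shared replicate numbers, and array numbers here follow accession order. A pair of mESC BERKO arrays and a pair of NPC WT+LY3201 arrays each share a title number and may be repeats of 1 sample; averaging each pair gave 4450 higher and 6931 lower, and 12 genes for LY3201. Signal near background limits differences of dim genes to lower bounds.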
